A study of Homo sapiens with 40 samples.

Results

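Roundup at 10 µg/L was compared with glyphosate at the same nominal 10 µg/L in HepaRG cells, a human liver tumour line whose differentiated cultures hold hepatocyte-like and biliary-like cells. The comparison rested on 10 of the 40 RNA-seq libraries of the series, namely the 5 labelled Roundup and the 5 labelled glyphosate at that dose. All cultures, controls included, were kept from day 8 to day 14 in a test medium with 2% fetal bovine serum and 1% DMSO. The 5 control libraries received no herbicide, and the series also holds 5 libraries each at 1 mg/L and 0.1 g/L of glyphosate, which entered the same fit. The Roundup product was Grand Travaux +, tested at a single concentration, and the sources used here do not state whether that concentration refers to the product or to the glyphosate in it. Neither do the labels say that libraries of a group came from separate cultures, so the p-values measure only the spread between these libraries, which may be technical.

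Glyphosate is a herbicide that blocks the shikimate pathway of plants and microbes, a pathway that animal cells lack. Roundup is a trade name for formulated products in which glyphosate is mixed with co-formulants such as surfactants, which help it enter leaves. Cultured hepatocytes respond to many foreign compounds through receptors such as AhR, PXR and CAR, which switch on cytochrome P450 enzymes, and through stress pathways such as NRF2 and the unfolded protein response. A comparison at equal dose asks whether the formulation changed transcript levels differently from its active compound.

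Abundance was given as FPKM (a fragment count scaled by transcript length and by the size of the library), here added up over all transcripts given the same gene name. The 10 libraries had FPKM sums of 255292 to 513059 and 27090 to 31956 named genes above 0. FPKM carries no count of reads, so the depth behind each value was not known from these values. The upper quartile of FPKM over genes above 0 was 4.69, 4.89, 3.92, 3.29 and 2.67 in Roundup replicates 1 to 5 and 4.80, 4.97, 3.95, 4.73 and 2.74 in glyphosate replicates 1 to 5. Replicate 5 was lowest in both groups, and Roundup replicate 4 lay below every glyphosate library but that one. None of the 6 library measures compared differed between the groups (smallest exact permutation p = 0.5, adjusted p = 0.873).

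Hepatocyte genes were abundant in both groups, although the noncoding RNAs of the list described below held 20.2% to 33.9% of all FPKM. ALB, which encodes albumin, stood at 11717, 13632, 10514, 9413 and 6832 FPKM in the Roundup libraries and at 11365, 14533, 9411, 17154 and 7274 FPKM in the glyphosate libraries. Glyphosate replicates 2 and 4 stood above every Roundup library and the other ranges overlapped, and the difference on the log2(FPKM + 1) scale was -0.17 (95% interval -0.68 to 0.35). The summed FPKM of 11 hepatocyte secreted proteins ran from 12641 to 24961 with Roundup and from 13345 to 28717 with glyphosate. KRT19, a keratin of biliary cells, averaged 280 ± 105 FPKM (SD, n = 5) with Roundup and 291 ± 86.3 FPKM with glyphosate, although 7 of the 11 biliary and progenitor markers, KRT7 and EPCAM among them, averaged under 1 FPKM. Markers of endothelial and immune cells were low. The 7 endothelial markers summed to between 1.00 and 2.85 FPKM with Roundup and between 1.12 and 2.52 FPKM with glyphosate, with CDH5 and CLEC4G listed at 0 in all 10 libraries. The 8 macrophage and lymphocyte markers summed to between 4.11 and 15.6 FPKM with Roundup and between 3.55 and 14.1 FPKM with glyphosate, led by LYZ and CD14, and CD3E was listed at 0 throughout. Stellate and fibroblast markers summed to between 32.8 and 94.1 FPKM with Roundup and between 45.8 and 104 FPKM with glyphosate, led by LUM. In such bulk libraries fewer cells of a type and less RNA per cell cannot be told apart.

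The libraries did not separate by treatment in a principal component analysis of the 9533 genes tested. Component 1, which held 44.6% of the variance, gave scores of -26.5, -29.0, 11.8, 42.8 and 78.9 for Roundup replicates 1 to 5. Glyphosate replicates 1 to 5 scored -25.9, -30.9, 6.15, -13.3 and 72.4 on it. Both replicates 5 sat at the far end, and Roundup replicate 4 was the only other of the 10 libraries above 12. The mean difference of 13.9 was smaller than the spread within groups, with SDs of 46.1 and 42.1 (exact permutation test, 2-sided, p = 0.635, adjusted p = 0.651). Libraries with a high score had a low upper quartile of FPKM. With libraries scaled to a common upper quartile, component 1 held 14.7% of the variance. The same scaling is given as an alternative below, and the cause of the low upper quartiles was not tested.

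**Figure D1:**
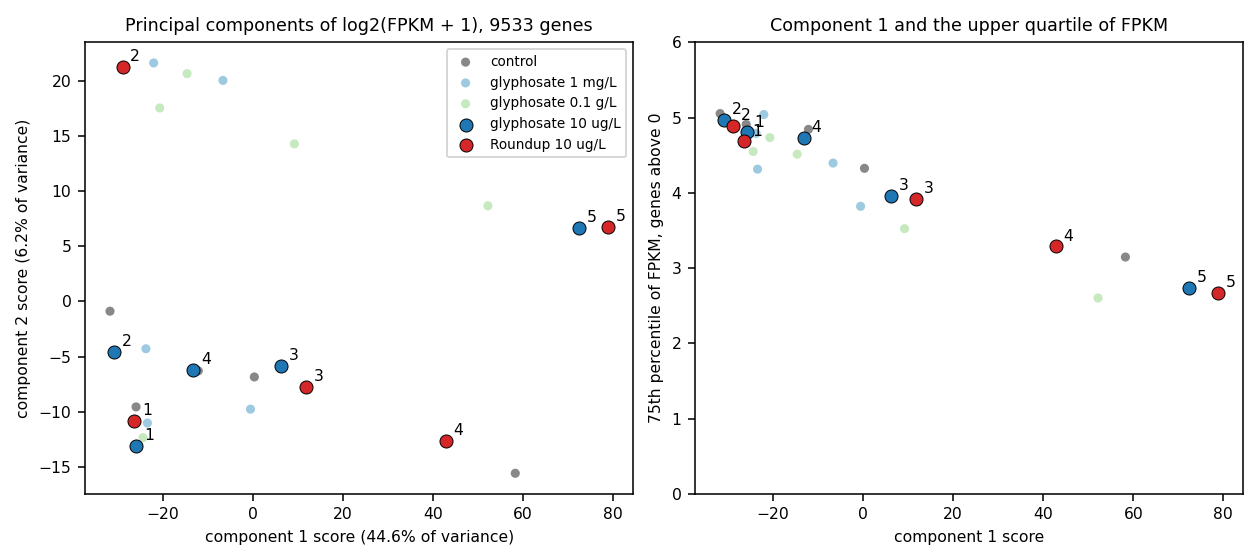
Left, scores of the 25 libraries on components 1 and 2 of log2(FPKM + 1), and right, component 1 score against the upper quartile of FPKM over genes above 0. Each point is a library, with the replicate number beside Roundup (red) and glyphosate 10 µg/L (dark blue). The 2 groups intermix on both components, and the libraries with high component 1 scores have the lowest upper quartiles.

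No gene differed between Roundup and glyphosate once corrected for the number tested. Of 9533 genes, 0 (0%) passed an adjusted p of 0.05 by limma, and the smallest adjusted p was 0.974. An ordinary linear model also called 0. At an unadjusted p under 0.05 there were 121 genes (1.27%), of which 28 (0.294%) were higher and 93 (0.976%) lower with Roundup. P-values spread evenly from 0 to 1 would give a share of 0.05, more than was seen here. The same holds for the loci, transcripts and contrasts with control below. The excess on the lower side moved with the scaling and with single libraries. The median difference over all genes was -0.14, became -0.03 when libraries were scaled to a common upper quartile and -0.003 after quantile normalization, and the genes at unadjusted p under 0.05 then split into 89 higher and 149 lower, and into 167 higher and 164 lower. Leaving out 1 library moved the median from -0.32 without glyphosate replicate 5 (15 higher and 397 lower) to 0.02 without Roundup replicate 5 (62 higher and 47 lower). Only 57 genes differed by more than 1 log2 unit in either direction.

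These data bounded most genes to moderate differences. The 95% interval of the difference lay inside 1 log2 unit in both directions for 8093 genes (84.9%), and its half-width had a median of 0.56 log2 units. With 0.1 in place of 1 added to FPKM, 6930 genes had such an interval. For 43 genes the interval lay inside 0.5 log2 units. A smaller response, or a difference confined to a low or variable transcript, could not be seen with these 5 libraries a group, and the missed threshold does not show that Roundup and glyphosate act alike. Leaving out glyphosate replicate 5 raised the genes at unadjusted p under 0.05 from 121 to 412, leaving out Roundup replicate 1 or 2 gave 213 or 266, and without glyphosate replicate 1 ATRAID and AC011447.1 passed the threshold. Array weights, which let limma trust some libraries more than others, called 4448 genes, of which 164 were higher with Roundup, but the computation stopped before convergence and gave Roundup replicate 3 a weight of 30.4 against at most 2.41 elsewhere, while a gene-by-gene computation called 817.

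**Figure D2:**
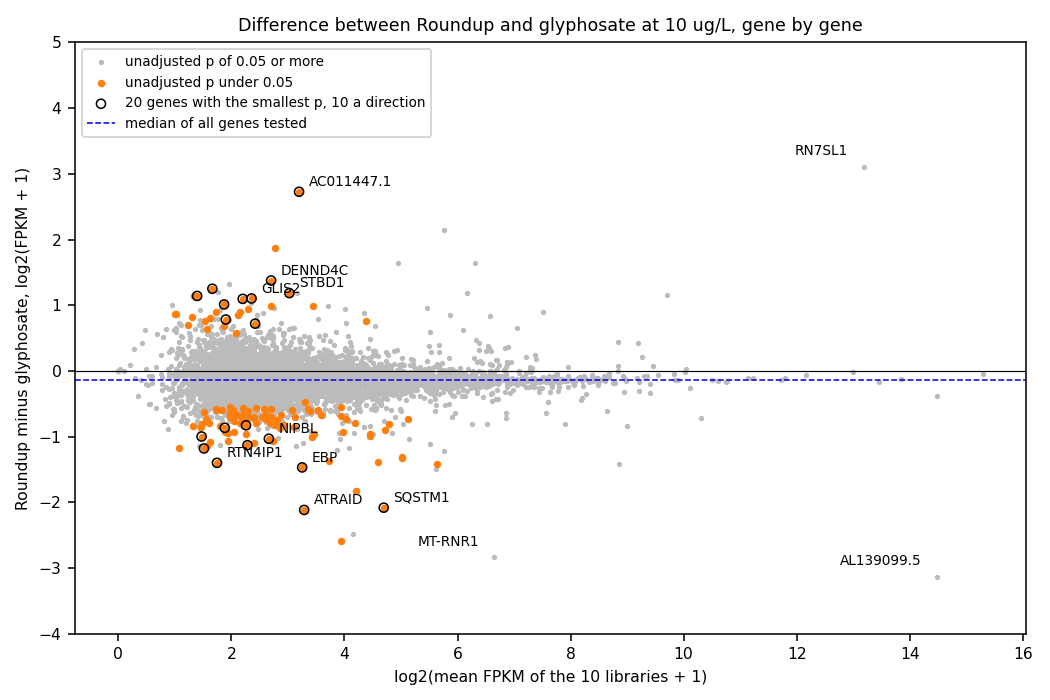
Difference between Roundup and glyphosate (y axis, log2(FPKM + 1) units) against log2(mean FPKM + 1) of the 10 libraries (x axis) for 9533 genes. Orange points have an unadjusted p under 0.05 (121 genes), circles mark the 20 genes with the smallest p, and the dashed line is the median of all genes at -0.14; the points furthest from 0 at high abundance, RN7SL1, AL139099.5 and MT-RNR1, are not among the orange ones.

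The 10 genes with the smallest p in each direction all missed the threshold (adjusted p = 0.974 for each by limma) and are described here by their values. On the lower side stood ATRAID (all-trans retinoic acid-induced differentiation factor, a membrane protein; GRCh38 chromosome 2, 27212027 to 27217178). Its FPKM was 1.38, 2.99, 1.85, 1.66 and 1.33 with Roundup and 1.65, 24.3, 5.63, 28.0 and 18.8 with glyphosate. The Roundup libraries sat with the controls, which ran from 1.68 to 3.78, and 4 of the 5 glyphosate libraries were higher than all of them. The difference was -2.12 log2 units (SE 0.50, limma unadjusted p = 0.000196). At higher glyphosate doses the gene averaged 5.87 ± 3.85 FPKM (1 mg/L) and 3.09 ± 3.36 FPKM (0.1 g/L), below its mean of 15.7 FPKM at 10 µg/L.

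SQSTM1 encodes p62, a receptor that delivers cargo to autophagy (chromosome 5, 179806398 to 179838078). It stood at 12.1, 11.6, 6.31, 6.88 and 4.08 FPKM with Roundup and at 56.8, 11.8, 45.4, 66.9 and 27.2 FPKM with glyphosate. Only glyphosate replicate 2 fell within the Roundup range, and the difference was -2.08 (SE 0.55, unadjusted p = 0.000707). Controls covered both levels, with 44.9 and 60 FPKM in replicates 1 and 2 and 6.70 to 10.1 FPKM in the others. NIPBL, which loads cohesin onto DNA, stood at 6.81, 3.03, 4.31, 0.374 and 3.11 FPKM with Roundup and 6.38, 9.14, 6.95, 7.75 and 5.47 FPKM with glyphosate. Roundup replicate 1 reached the glyphosate range and the other 4 lay below it, for a difference of -1.03 (SE 0.30). EBP, a sterol isomerase of cholesterol synthesis, read 3.47, 3.57, 0.971, 4.70 and 7.79 FPKM with Roundup against 22.6, 16.4, 12.1, 5.94 and 7.76 FPKM with glyphosate. Its controls ran from 3.02 to 16.9 FPKM. The other 6 genes on this side were ZFP1, ZNF830, ADAMTSL5, RTN4IP1, PRR14L and the fatty acid transporter gene SLC27A1, with group means of 0.801 to 2.70 FPKM with Roundup and 2.75 to 5.34 FPKM with glyphosate and differences of -0.83 to -1.40.

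On the higher side the smallest p belonged to GLIS2, a zinc finger transcription factor (chromosome 16, 4314761 to 4339597). It stood at 8.46, 10.2, 2.46, 5.20 and 4.21 FPKM with Roundup and at 2.94, 2.81, 2.31, 1.80 and 0.851 FPKM with glyphosate. Roundup replicate 3 was within the glyphosate range, and controls ran from 3.56 to 6.19 FPKM. The difference was 1.10 (SE 0.29, limma unadjusted p = 0.000677). AC011447.1, a transcript of 441 bases on chromosome 19 (20125044 to 20125484) in the locus of ZNF90, read 9.73, 24, 7.35, 14.9 and 9.20 FPKM with Roundup and 16.0, 0.136, 0.139, 0.0661 and 0.216 FPKM with glyphosate. It was thus near 0 in 4 glyphosate libraries and not in replicate 1, while control replicate 1 and the lowest library at 1 mg/L were also low (0.506 and 0.454 FPKM). The difference of 2.73 (SE 0.72) was the largest among the 20 genes.

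STBD1, a glycogen-binding protein, stood at 13.0, 14.6, 9.18, 8.83 and 6.01 FPKM with Roundup and 2.62, 3.90, 2.80, 3.97 and 6.51 FPKM with glyphosate. The groups overlapped through both replicates 5. DENND4C, an activator of the small GTPase Rab10, was the only 1 of the 20 whose groups did not overlap, at 3.89 to 14.8 FPKM with Roundup and 1.06 to 3.43 FPKM with glyphosate, yet controls spanned 2.38 to 16.4 FPKM. The other 6 were KRT10, the cohesin regulator gene PDS5B, the complex I subunit gene NDUFV3, the ATP synthase assembly factor gene ATPAF2 and the small nucleolar RNA names SNORA17B and SNORA32, with differences of 0.72 to 1.25. SNORA32 gathers transcripts of 4 loci, so its value is not that of a single gene.

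All 5 Roundup values lay above all 5 glyphosate values in 2 genes (0.021% of those tested) and below them in 8 (0.0839%). A random split of the 10 libraries would give this, in either direction, with a probability of 0.00794, so the shares seen were smaller. Besides DENND4C the genes were CDK11B on the higher side and BCL9, DIAPH2, HP1BP3, MED25, PER3, PTPRD, SPTAN1 and TTF2 on the lower side, named here after their values were seen. SPTAN1, the alpha-spectrin of the membrane skeleton, ran from 9.49 to 19.8 FPKM with Roundup and from 22.1 to 87.5 FPKM with glyphosate. MED25, a Mediator subunit, ran from 0.366 to 1.26 FPKM with Roundup and from 1.63 to 4.61 FPKM with glyphosate. The clock gene PER3 had the smallest difference of these 10, at 3.35 to 5.50 FPKM against 5.59 to 6.52 FPKM, with a value of -0.38 (95% interval -1.02 to 0.26).

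Most of these differences were smaller when the whole locus was counted. The assembly placed unnamed transcripts in the locus of 58.7% of the tested genes with a single locus, and a sum by gene name leaves those transcripts out. Among the genes at unadjusted p under 0.05 the share was 97.5%. When FPKM was summed over every transcript of a locus instead, 0 of 9477 loci passed the threshold by limma, 37 (0.39%) had an unadjusted p under 0.05, of which 11 (0.116%) were higher and 26 (0.274%) lower with Roundup, and 97.7% of intervals lay inside 1 log2 unit. Of the 121 genes at unadjusted p under 0.05, 109 had a single locus that was tested. For 7 of them the locus also had an unadjusted p under 0.05 in the same direction, and for 13 the locus difference had the opposite sign. The median size of the difference was 0.81 log2 units by gene name and 0.25 by locus, for genes that had been chosen by their gene-name value. Among the 20 named genes, 17 had a locus fit and 2 had a locus p under 0.05, ATRAID and AC011447.1.

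At the GLIS2 locus the sums were 10.2, 10.4, 6.45, 5.26 and 4.30 FPKM with Roundup and 9.20, 9.05, 6.31, 7.20 and 3.45 FPKM with glyphosate, a difference of 0.04. SQSTM1 turned the other way. Its locus held 238, 267, 162, 144 and 70.7 FPKM with Roundup and 134, 263, 99.2, 137 and 61.6 FPKM with glyphosate, a difference of 0.36. The STBD1 locus, shared with FAM47E, differed by -0.19 and the KRT10 locus by -0.37, both opposite to the gene-name value. ATRAID shares its locus with CAD, the first enzyme of pyrimidine synthesis. The sum there was 14.2, 16.2, 12.7, 9.70 and 7.16 FPKM with Roundup and 15.9, 36.8, 15.0, 38.6 and 22.4 FPKM with glyphosate, a difference of -0.99 (limma unadjusted p = 0.000587, adjusted p = 0.938). Glyphosate replicates 2, 4 and 5 stood above every Roundup library there, as they did by gene name. At the AC011447.1 locus the difference was 2.10 (unadjusted p = 0.000534).

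**Figure D3:**
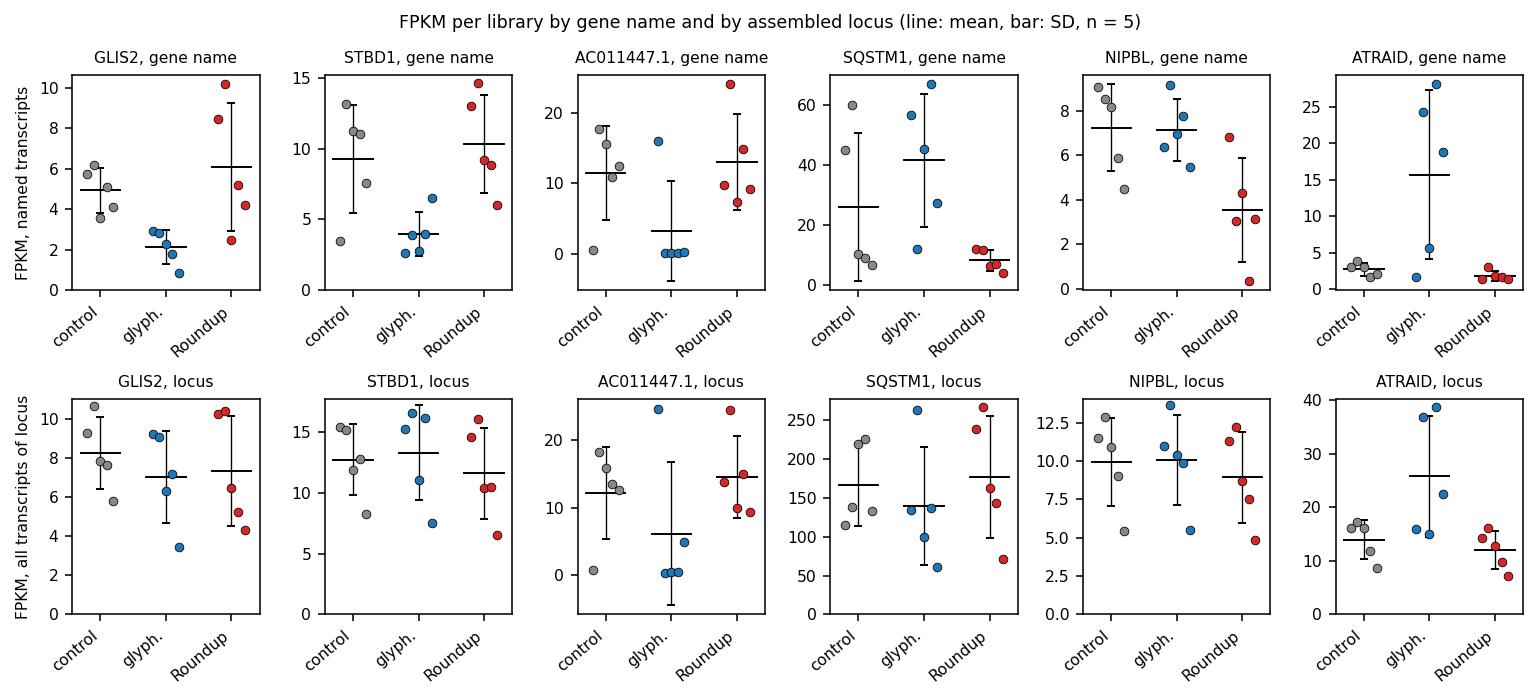
FPKM of 6 genes in each control, glyphosate 10 µg/L and Roundup library, summed over the transcripts with the gene's name (top) and over every transcript of the locus (bottom); lines are means and bars SDs, n = 5. The separation of Roundup from glyphosate seen by gene name is gone at the loci of GLIS2, STBD1, SQSTM1 and NIPBL and is still visible at those of AC011447.1 and ATRAID.

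The furthest differences of all gene names lay between overlapping names. RN7SL1, the RNA of the signal recognition particle, differed by 3.10 log2 units (95% interval -4.0 to 10.2) and AL139099.5 by -3.13 (95% interval -10.3 to 4.01), both with wide intervals. The transcripts behind these names have 299 and 300 bases and overlap in all but 1 base, at chromosome 14, 49586580 to 49586878 and 49586579 to 49586878. RN7SL1 was listed at 0 in Roundup replicates 1, 3 and 4 and at 55485 and 17230 FPKM in replicates 2 and 5. AL139099.5 was listed at 39868, 27003 and 22943 FPKM in Roundup replicates 1, 3 and 4 and at 0 in replicates 2 and 5. With glyphosate, replicate 5 carried RN7SL1 at 20403 FPKM and the other 4 carried AL139099.5 at 23372 to 46827 FPKM. Each of the 25 libraries held exactly 1 of the 2 names above 0, and the whole locus differed by -0.08 between Roundup and glyphosate. EIF3CL, a translation initiation factor gene whose near-identical copy EIF3C makes its value uncertain, was 0 to 16.2 FPKM with Roundup and 1.89 to 45.8 FPKM with glyphosate, a difference of -2.59 by name and -0.21 by locus. These genes were singled out after their values were seen.

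At the level of single transcripts, 0 of 20601 differed by limma (smallest adjusted p = 1), and 648 (3.15%) had an unadjusted p under 0.05, 189 (0.917%) higher and 459 (2.23%) lower with Roundup. Leaving out glyphosate replicate 5 brought that count to 1102. Intervals were wider than for genes, with 34.6% inside 1 log2 unit. In the transcript with the smallest p, MSTRG.14725.2, an unnamed transcript of the GLIS2 locus, FPKM was 1.77, 0.190, 3.99, 0.0649 and 0.0929 with Roundup and 6.26, 6.24, 4.0, 5.40 and 2.60 with glyphosate. It was thus lower in 4 of 5 Roundup libraries while the named GLIS2 transcripts were higher. Without Roundup replicate 3 it passed the threshold (limma adjusted p = 0.0368).

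PLD3 transcript ENST00000409587, from a lysosomal exonuclease gene, was listed at 0 in 4 Roundup libraries and at 0.0354 FPKM in replicate 1, against 1.13 to 3.25 FPKM with glyphosate and 1.78 to 4.20 FPKM in controls. INF2 transcript ENST00000392634, from a formin gene, read 3.42, 5.43, 1.24, 3.67 and 3.51 FPKM with Roundup and 13.9, 14.0, 16.5, 12.9 and 9.49 FPKM with glyphosate. Its controls ran from 2.92 to 12.4 FPKM and so reached both groups. Roundup and glyphosate did not overlap in the PLD3 or the INF2 transcript. Non-overlap was seen in 16 transcripts (0.0777%) on the higher side and 41 (0.199%) on the lower side. The remaining transcripts on the lower side were MSTRG.6480.28 of the CELF1 locus (-1.23) and ATRAID ENST00000611786 (-1.76). On the higher side CHCHD5 ENST00000454841 was 1.51 to 9.34 FPKM with Roundup, listed at 0 in 4 glyphosate libraries and 1.81 to 3.23 FPKM in controls. ASL ENST00000395332, from the argininosuccinate lyase gene of the urea cycle, was 0.892 to 15.8 FPKM with Roundup, 0 to 0.507 FPKM with glyphosate and 0 to 9.04 FPKM in controls. MSTRG.2476.4 of the CLK2 locus and MSTRG.18152.1 of the MXRA7 locus were above 0 in 4 and 3 Roundup libraries. They were listed at 0 in all control and glyphosate 10 µg/L libraries. Transcripts were chosen for testing by their variance, which in these groups came from the Roundup values alone. The small p of both is therefore no separate evidence of a difference. CDK20 ENST00000486228 completed the set, with a difference of 1.30. Apart from ATRAID, the loci of these 10 transcripts differed by -0.21 to 0.12.

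**Figure D4:**
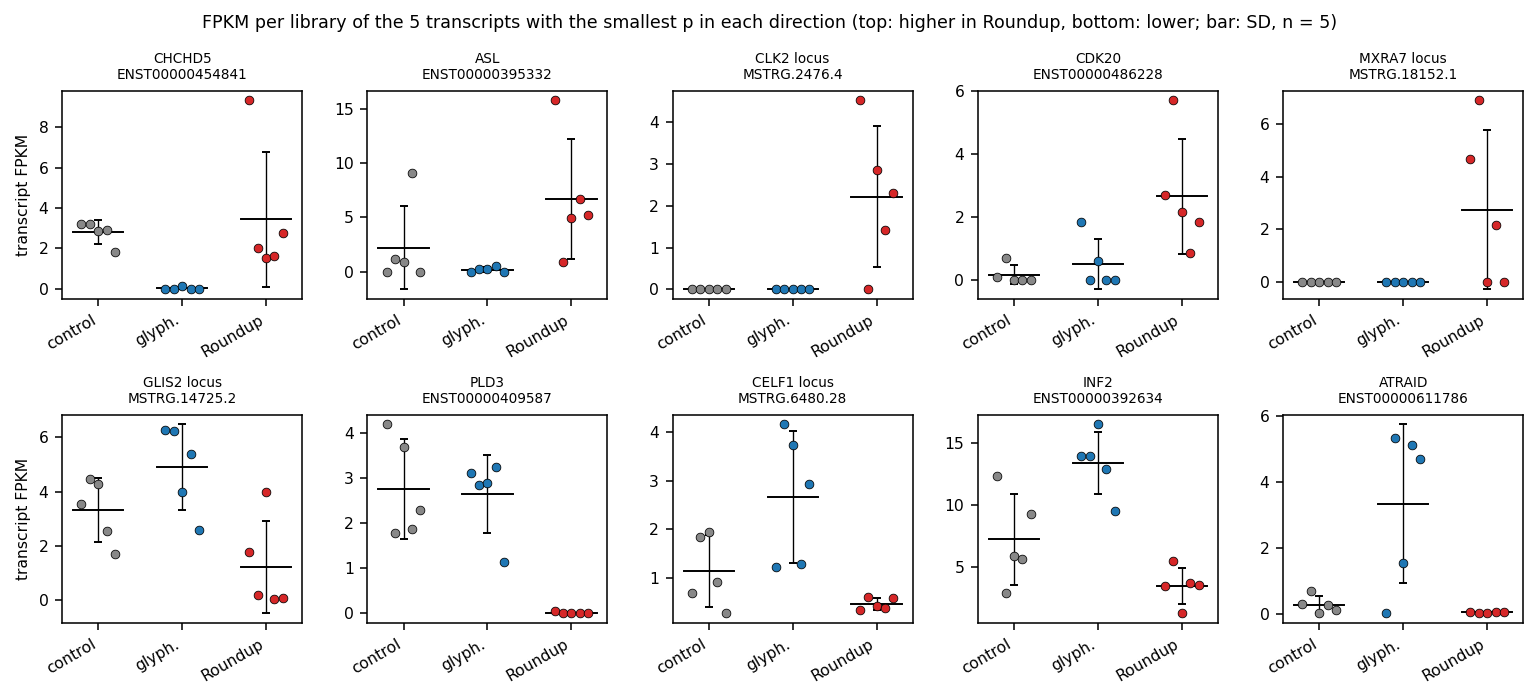
FPKM of the 5 transcripts with the smallest p in each direction (top row higher with Roundup, bottom row lower) in each control, glyphosate 10 µg/L and Roundup library; lines are means and bars SDs, n = 5. In CHCHD5, ASL, PLD3, CELF1 and INF2 the Roundup points do not overlap the glyphosate points, and none of the 10 passed the adjusted threshold.

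No gene of the liver pathways examined passed the test. The 40 lists held 427 genes, of which 332 were tested, and 0 passed the adjusted threshold or an unadjusted p under 0.05 by limma. Their median difference was -0.13, beside -0.14 for all genes tested, and 83.1% of their intervals lay inside 1 log2 unit, beside 84.9% of all genes. Median differences were below 0 in 38 of the 39 lists with a tested member, but in 23 after scaling to a common upper quartile and in 14 after quantile normalization, so the common sign was not kept.

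Genes that sense and metabolise foreign compounds showed no difference beyond their spread. CYP1A1, the classic target of the aryl hydrocarbon receptor (AhR), was at most 0.118 FPKM with Roundup and 0.0408 FPKM with glyphosate. Controls read 7.69, 3.76 and 0.175 FPKM in replicates 1 to 3 and 0 in the others, and the 0.1 g/L libraries reached 6.48 FPKM, so values at 0 occurred without herbicide too. Of 8 AhR target genes 5 were tested. ALDH3A1, an aldehyde dehydrogenase, averaged 88.6 ± 32.1 FPKM (n = 5) with Roundup and 98.7 ± 27.8 FPKM with glyphosate, and UGT1A6, a glucuronosyltransferase, 91.6 ± 40.7 and 67.0 ± 41.9 FPKM (difference 0.46, 95% interval -0.25 to 1.18). PXR, CAR and their targets had a median difference of -0.03 (9 of 12 tested). CYP3A4, the main drug-metabolising P450 of adult liver, was 1.36 to 3.54 FPKM with Roundup and 1.70 to 4.67 FPKM with glyphosate. UGT1A1, which conjugates bilirubin, differed by -0.29 (95% interval -1.0 to 0.43). The medians were -0.03 for other oxidative drug and alcohol metabolism (11 of 13 tested), with POR at -0.37, and -0.12 for conjugating enzymes (12 of 15), whose 12 intervals all lay inside 1 log2 unit and were led in abundance by GSTA1 at 394 ± 80.1 and 422 ± 109 FPKM.

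Among stress genes, too, none passed either p. NRF2 and its targets (9 of 12 tested, median -0.17) included GCLM, a subunit of the first enzyme of glutathione synthesis, at 25.9 ± 8.66 FPKM with Roundup and 29.7 ± 7.68 FPKM with glyphosate. The antioxidant enzymes (9 of 9, median -0.12) were led by PRDX1, with a difference of -0.18. In the unfolded protein response of the endoplasmic reticulum (10 of 10, median -0.13) the member with the smallest p was HERPUD1, at -0.27 (95% interval -0.78 to 0.24), and the most abundant was the chaperone gene CALR at 344 ± 128 and 366 ± 116 FPKM. The integrated stress response (8 of 11, median -0.08) included ATF4, its central transcription factor, at 40.7 ± 13.7 and 45.2 ± 16.6 FPKM. Heat shock proteins (9 of 9, median -0.15) ranged from -0.63 (95% interval -1.41 to 0.14) for HSPH1, a chaperone of the HSP110 family at 11.3, 16.6, 8.77, 6.19 and 1.0 FPKM with Roundup and 13.8, 18.0, 11.2, 11.6 and 5.28 FPKM with glyphosate, to 0.43 for the mitochondrial chaperone gene HSPD1. The p53 targets (10 of 10, median -0.22) included CDKN1A, a cell cycle inhibitor, at 134 ± 53.4 and 147 ± 52.1 FPKM. Cell cycle genes (9 of 10) had a median of -0.12 and metallothioneins (3 of 8) of -0.12. Among the replication-dependent histones (10 of 10, median -0.13) HIST1H2BK read 85.0, 2.22, 46.4, 30 and 33.3 FPKM with Roundup and 86.3, 67.7, 49.4, 102 and 29.5 FPKM with glyphosate. Roundup replicate 2 stood far below the others, the difference was -1.22 (95% interval -2.58 to 0.15), and the locus differed by -0.42.

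Lipid genes were examined because fatty liver was the subject of the series. Lipogenesis (10 of 11 tested) had a median difference of -0.09, and SCD, the stearoyl-CoA desaturase, read 208 ± 48.1 FPKM with Roundup and 220 ± 68.0 FPKM with glyphosate. The list of lipid uptake, droplets and lipases (7 of 13, median -0.14) held PNPLA2, the main triglyceride lipase, which differed most among the tested members of the lipid lists. It stood at 28.0, 35.6, 8.77, 7.04 and 5.20 FPKM with Roundup and 27.3, 31.6, 21.6, 27.5 and 15.1 FPKM with glyphosate. Roundup replicates 3, 4 and 5 lay below every glyphosate library and replicates 1 and 2 did not (difference -0.84, 95% interval -1.86 to 0.18, -0.31 by locus). Fatty acid oxidation and ketogenesis (11 of 12) had a median of -0.12, with HADHA, of the mitochondrial trifunctional protein, at -0.52 (95% interval -1.23 to 0.19). Cholesterol synthesis (12 of 12, median -0.08), bile acid synthesis and transport (5 of 11, median -0.12) and the apolipoproteins (8 of 10, median -0.08) had no tested member beyond 0.30 in either direction, but the first list does not hold EBP, the cholesterol synthesis gene given above at -1.47. APOA1, the main protein of high-density lipoprotein, averaged 1032 ± 284 and 1057 ± 352 FPKM.

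In amino acid and sugar metabolism the medians were -0.07 for the urea cycle (6 of 10 tested), -0.09 for glycine metabolism and transport (7 of 12), -0.13 for amino acid transporters (9 of 11) and -0.15 for gluconeogenesis and glycolysis (9 of 12). Glyphosate is an analogue of glycine, and the member of the glycine list with the smallest p was AGXT, which transfers the amino group of alanine to glyoxylate to make glycine. It read 10.6, 11.5, 8.87, 8.06 and 5.05 FPKM with Roundup and 8.05, 9.00, 0.955, 7.69 and 4.30 FPKM with glyphosate. Glyphosate replicate 3 stood alone below 1 FPKM, the difference was 0.65 (95% interval -0.02 to 1.32), and the locus differed by 0.18.

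Secretory, structural and immune genes closed the survey. The medians were -0.08 for hepatocyte secreted proteins (10 of 11 tested), -0.17 for hepatocyte transcription factors (10 of 11), -0.21 for biliary and progenitor markers (4 of 11), -0.12 for stellate and fibroblast markers (5 of 11) and -0.02 for macrophage and lymphocyte markers (3 of 8), while none of the 7 endothelial markers was variable enough to be tested. Acute-phase proteins (11 of 12, median -0.10) varied widely within each group. FGA, a fibrinogen chain, averaged 2242 ± 1098 FPKM with Roundup and 2293 ± 880 FPKM with glyphosate. LBP, which binds bacterial lipopolysaccharide, ran from 11.3 to 96.9 FPKM with Roundup and from 7.47 to 139 FPKM with glyphosate. The lowest median, -0.33, was that of inflammatory cytokines and chemokines (6 of 11), whose members ran from -0.47 to -0.16. CCL20, a chemokine, read 6.93, 3.14, 1.34, 1.16 and 1.07 FPKM with Roundup and 7.40, 4.15, 2.54, 2.40 and 2.01 FPKM with glyphosate, and only 1 of the 6 intervals lay inside 1 log2 unit. IL32, the most abundant of the 6, averaged 93.1 ± 55.1 and 112 ± 57.9 FPKM. Interferon-stimulated genes had a median of -0.08 (10 of 11), matrix enzymes and collagens -0.16 (10 of 12), nuclear and steroid hormone receptors -0.17 (9 of 11), membrane repair genes and annexins -0.16 (8 of 9), junctions and canaliculi -0.14 (8 of 8), ribosomal proteins -0.15 (10 of 10) and abundant noncoding RNAs -0.09 (8 of 8). FN1, fibronectin of the matrix, read 51.8, 886, 456, 294 and 442 FPKM with Roundup and 715, 815, 561, 662 and 231 FPKM with glyphosate. Roundup replicate 1 was the lowest of the 10 (difference -0.83, 95% interval -1.87 to 0.20), and the locus differed by -0.13. RPL7A, a ribosomal protein gene whose locus also holds other transcripts, differed by 0.90 by name (95% interval -0.64 to 2.43) and by 0.15 by locus. PPARD, a fatty acid-sensing nuclear receptor, was 3.57 ± 2.16 FPKM with Roundup and 4.74 ± 1.56 FPKM with glyphosate, and ACTA2, the actin of activated stellate cells, was 0.436 to 2.50 FPKM with Roundup and 0.780 to 17.6 FPKM with glyphosate, where only replicate 2 exceeded 2 FPKM. ANXA6, a calcium-dependent membrane-binding annexin, had the smallest p of the membrane repair list, at 16.4 ± 5.09 FPKM with Roundup and 26.9 ± 12.4 FPKM with glyphosate (difference -0.58, 95% interval -1.22 to 0.06).

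Other genes that were the most abundant of their list, or had its smallest p, also missed both thresholds. Among hepatocyte genes AMBP, the precursor of a plasma protease inhibitor, differed by -0.34 (95% interval -0.98 to 0.29), and the transcription factor genes CEBPB and FOXA1 by -0.23 and -0.19. SOX9, a factor of biliary cells, differed by -0.21, and CD68, a macrophage lysosomal protein, averaged 1.46 FPKM with Roundup and 1.51 FPKM with glyphosate. In drug and redox metabolism ADH1A, an alcohol dehydrogenase, differed by -0.16, UGT2B15, a steroid-conjugating enzyme, by -0.17 and TXN, thioredoxin, by -0.21. Of the stress and growth genes, SESN2, a stress-induced regulator of mTORC1, differed by -0.20, the chaperone gene HSPA8 by -0.14, the p53-induced death gene BBC3 by -0.26, PCNA of the replication fork by -0.12 and the mitotic cyclin gene CCNB1 by -0.20.

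Among the lipid genes ACACA, which makes malonyl-CoA, was the member of the lipogenesis list with the smallest p, at 0.29 (95% interval -0.42 to 1.01) by name and -0.11 by locus. PLIN2, which coats lipid droplets, differed by -0.13, ACADVL of fatty acid oxidation by -0.08, FDFT1 and LSS of cholesterol synthesis by -0.09 and -0.17, and CYP27A1 and ABCC2 of bile acid synthesis and export by -0.16 and -0.12. APOE averaged 910 ± 286 FPKM with Roundup and 996 ± 289 FPKM with glyphosate. In nitrogen and sugar metabolism ASS1 and ARG1 of the urea cycle differed by -0.12 and 0.18, GATM of creatine synthesis by -0.09, the transporter genes SLC38A2 and SLC1A3 by -0.16 and -0.29, and LDHA and PFKFB3 of glycolysis by -0.08 and -0.24. The metallothionein gene MT2A differed by -0.12, the nuclear receptor gene RXRA by -0.17, ANXA2 by -0.07, and the cytoskeleton gene MYH9 by -0.19. RN7SL2, another RNA of the signal recognition particle, ran from 14179 to 25232 FPKM with Roundup and from 16766 to 38030.0 FPKM with glyphosate, with a difference of -0.39 (95% interval -0.86 to 0.08).

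**Figure D5:**
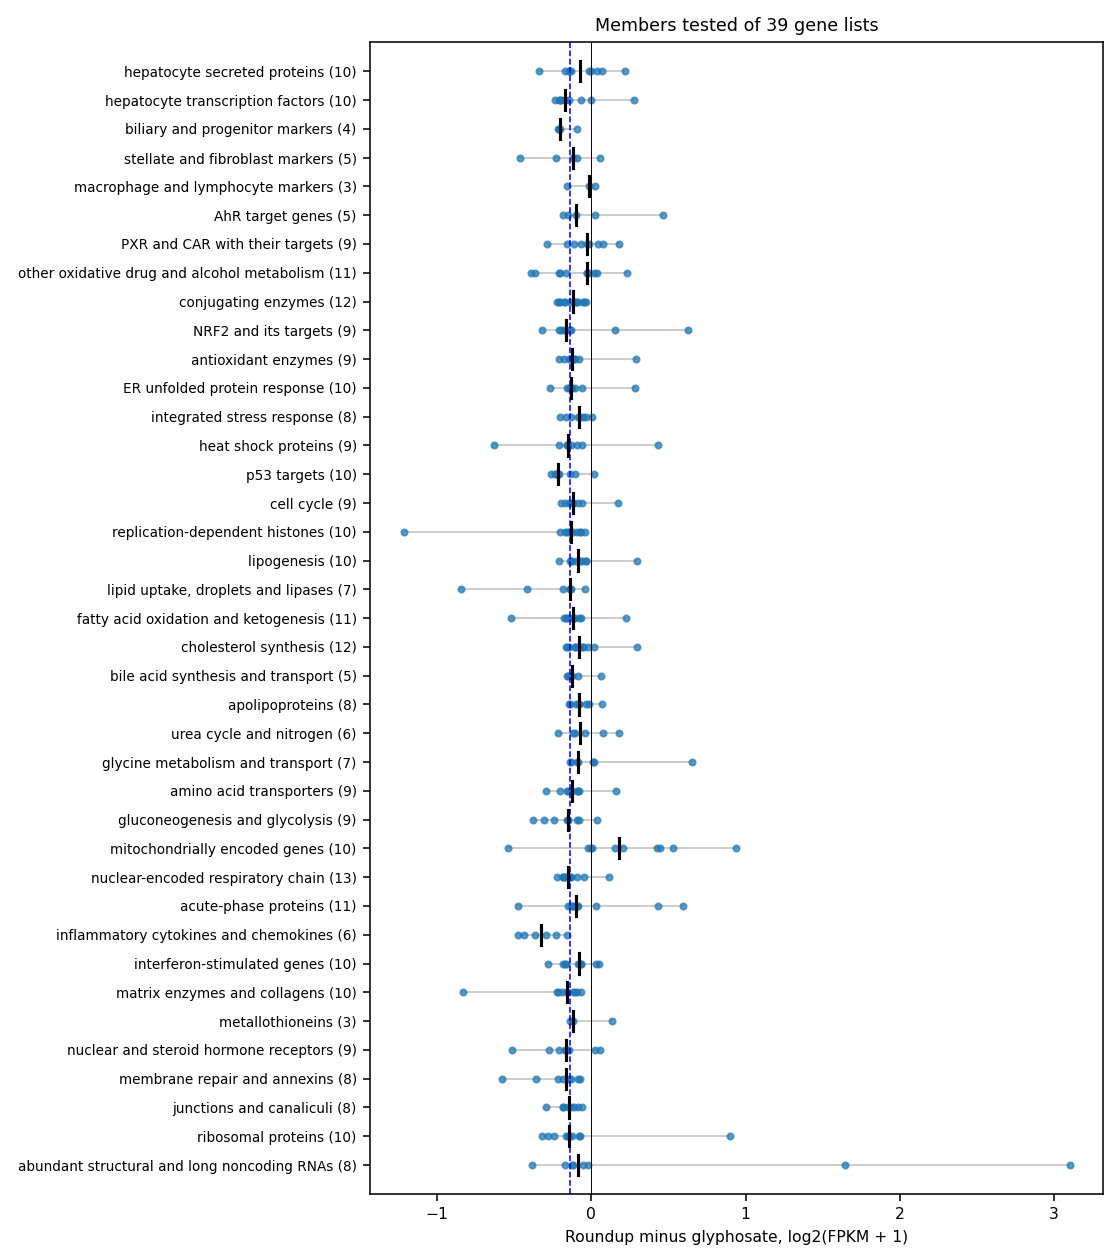
Differences between Roundup and glyphosate (x axis, log2(FPKM + 1) units) for the tested members of 39 gene lists, with the number tested beside each name. Points are genes, thick black ticks list medians, the grey line the range and the dashed line the median of all genes at -0.14. Most medians lie close to the dashed line, and RN7SL1 among the noncoding RNAs lies furthest from it.

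Genes encoded by mitochondrial DNA varied widely within both groups. Their share of all FPKM was 0.137%, 0.144%, 0.145%, 0.559% and 0.114% in Roundup replicates 1 to 5, and 0.0840%, 0.0875%, 0.140%, 0.124% and 0.355% in glyphosate replicates 1 to 5. Roundup replicate 4 and glyphosate replicate 5 stood apart from the rest of their groups. Controls held 0.434% to 0.516% in 4 libraries and 0.0933% in replicate 5, so both levels occurred without herbicide. MT-CO1, a subunit of cytochrome oxidase, read 464, 516, 351, 1159 and 210 FPKM with Roundup and 213, 216, 347, 395 and 699 FPKM with glyphosate (difference 0.44, 95% interval -1.77 to 2.65). MT-RNR1, a mitochondrial ribosomal RNA outside that list and named after its values were seen, read 80.4, 0, 5.11, 16.4 and 2.18 FPKM with Roundup and 0, 67.8, 122, 99.7 and 601 FPKM with glyphosate (difference -2.84, 95% interval -6.13 to 0.46). The list's median was 0.18 (10 of 13 tested), only 2 intervals lay inside 1 log2 unit, and of the 10 libraries only Roundup replicate 4 had MT-ND4 above 0 (24.6 FPKM), while MT-ND3, MT-ND4L and MT-ND6 were listed at 0 in all 10 libraries. The 13 of 14 tested nuclear-encoded genes of the respiratory chain had a median of -0.15, and all 13 intervals lay inside 1 log2 unit.

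Against the shared controls neither treatment gave a call. Roundup minus control had 0 of 9533 genes past the adjusted threshold by limma and 165 (1.73%) at an unadjusted p under 0.05, 33 (0.346%) higher and 132 (1.38%) lower. Glyphosate minus control had 0 past the threshold and 95 (0.997%) at an unadjusted p under 0.05, 41 (0.43%) higher and 54 (0.566%) lower. The contrasts use the same 5 control libraries and are given side by side only. ATRAID was -0.38 for Roundup and 1.74 for glyphosate, GLIS2 0.16 and -0.95, AC011447.1 0.45 and -2.27, and STBD1 0.19 and -1.0, so in these the larger difference was that of glyphosate. NIPBL was -1.03 for Roundup and 0.00 for glyphosate, ZNF830 -0.85 and 0.01, PRR14L -1.03 and 0.10, and SLC27A1 -0.90 and -0.07, so in these it was that of Roundup. SQSTM1 was -1.12 and 0.96. All were chosen by their difference between Roundup and glyphosate, and none had an adjusted p against control under 0.902 by limma. By locus, NIPBL averaged 8.94 FPKM with Roundup, 10.1 with glyphosate and 9.96 in controls, and GLIS2 7.32, 7.04 and 8.25 FPKM. ATRAID and AC011447.1 kept their direction by locus, at 12.0, 25.7 and 13.9 FPKM and at 14.5, 6.20 and 12.2 FPKM. Without control replicate 5 the counts at unadjusted p under 0.05 rose to 469 for Roundup and 175 for glyphosate. RACGAP1 alone passed the adjusted threshold in both contrasts without control replicate 2.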

How the data were processed

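RNA-seq was made from HepaRG cultures with rRNA-depleted, strand-specific libraries and paired-end reads. For the herbicide libraries the authors deposited FPKM per transcript, made by HISAT2 alignment to GRCh38 and StringTie assembly guided by Ensembl models, which also formed the loci. Some deposited columns, recorded as a score because 6 values in them lay just below 0, hold the same FPKM, and those values were set to 0. The table of the PCB 126 libraries was not used here. FPKM was summed over the transcripts of each gene name (56568 names), or alternatively per locus, and 35782 of 234960 transcripts had no gene name. Genes with a variance above 1 over the 25 libraries of the herbicide table were fitted as log2(FPKM + 1) with limma 3.58.1 in R 4.3.3 (lmFit, contrasts.fit, eBayes), without covariates, with Benjamini-Hochberg adjustment and a threshold of 0.05. Such fold changes understate the change of low genes. Single values per library were tested with 2-sided exact permutation tests over 252 splits, whose smallest p is 0.00794. The same limma contrast was also run on simulated data, with an outcome that is not reported here.

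The genes named were taken from the 10 with the smallest p in each direction, the most abundant member and the tested member with the smallest p of each list, and the 5 transcripts with the smallest p in each direction. Some of these are not reported here. Further genes were named for their known role after their values were seen. The libraries compared, the 40 gene lists and the tests were chosen with earlier results of these data known. Replicates were numbered by the order of the library numbers in the labels. Alternatives changed the pseudocount, filter, scaling, model, gene value, replicate block and libraries.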

Additional observations from a re-analysis of the deposited data

Results flagged for a closer look

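In 5 of the 58 groups of values examined (Dixon's test, groups of 5 libraries), a single library lay further from the others than the 95% critical value. Chance gives about 1 in 20 such groups. The share of FPKM in mitochondrially encoded genes reached 0.559% in Roundup replicate 4, next to 0.145% in the nearest other Roundup library. In the glyphosate group it reached 0.355% in replicate 5, next to 0.140%. The share of FPKM in transcripts without a gene name was 27.5% in glyphosate replicate 5, next to 16.3% in the nearest other library. RTN4IP1, a mitochondrial protein gene, had a log2(FPKM + 1) of 2.57 in Roundup replicate 1 and at most 0.44 in the other Roundup libraries. AC011447.1 had a log2(FPKM + 1) of 4.09 in glyphosate replicate 1 and at most 0.28 in the others.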

How the results depend on the processing

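The count of 0 genes between Roundup and glyphosate remained 0 with another pseudocount, a mean filter, upper-quartile scaling, quantile normalization, limma-trend, an ordinary linear model with or without library size, and a fit on the compared groups alone. Without the variance filter, 1 of 44434 genes passed, RNU2-35P, and glyphosate against control gave the same 1. Array weights gave 4448 genes against glyphosate and 3470 against control, and gene-by-gene weights, added after the data were seen, gave 817 and 550. Roundup replicate 3, which took the highest weight, scored 11.8 on component 1, the nearest of its group to the group mean of 15.6. The cause of its weight was not tested. Fitting only the compared groups gave 1 transcript (of TMCC1) between Roundup and glyphosate and 2 genes (EIF3CL and NUDT4) between Roundup and control. Leaving out 1 library gave 0 to 2 genes and 0 to 1 transcripts between Roundup and glyphosate, and 0 to 1 genes in each contrast with control. The intervals inside 1 log2 unit numbered 6930 with a pseudocount of 0.1 and 7087 without glyphosate replicate 5, against 8093 in the main fit. They numbered 42587 without the filter, where more genes were tested, and 5096 of 8495 when each gene was represented by its most abundant transcript. Leaving out 1 library moved the component 1 difference between -1.92 (without Roundup replicate 5) and 31.5 (without glyphosate replicate 5). By locus sum, an alternative added after the data were seen, STBD1 turned to -0.19, KRT10 to -0.37 and SQSTM1 to 0.36.

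With the replicate number as a block, 0 genes passed (177 at unadjusted p under 0.05) and 8366 intervals lay inside 1 log2 unit, and the block changed no other call. Same-numbered Roundup and glyphosate libraries correlated by 0.0258 to 0.360 in their deviations, over 0.1 for 2 of 5 numbers, and 2 of 5 numbers matched each other best both ways. Same-numbered pairs were also closer in log2(FPKM + 1), with a median distance of 50.7, against 66.1 for Roundup and glyphosate libraries of different numbers. The median was 76.3 within Roundup and 62.7 within glyphosate, and same-numbered pairs ran from 47.7 to 76.5. The labels do not say what libraries of a number share, so the main fit held no block, and a shared origin was not tested. Without Roundup replicates 4 and 5 and glyphosate replicate 5, a choice made after the data were seen, 119 genes had an unadjusted p under 0.05, 58 higher and 61 lower. The spread between libraries limits what can be seen in genes near 1 FPKM, and so does the depth, which FPKM does not show.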

Other observations

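RNU2-35P, a U2 small nuclear RNA pseudogene too low to be tested among the 9533 genes, was above 0 in 5 of the 25 libraries, and these were the 5 of glyphosate at 10 µg/L, at 0.219, 0.195, 0.596, 0.247 and 0.191 FPKM. It was listed at 0 in all Roundup, control and higher-dose libraries. The gene was singled out after its values were seen.

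The name listed above 0 at the RN7SL1 locus varied within each herbicide group and not among the controls. RN7SL1 was the name above 0 in 9 of 25 libraries, namely 0 control, 1 glyphosate 10 µg/L, 2 at 1 mg/L, 4 at 0.1 g/L and 2 Roundup libraries, and AL139099.5 in the other 16. The 9 libraries with RN7SL1 were also the 9 with a component 2 score above 0. With 5 libraries a group these counts are small. The pattern was picked out after the values were seen, and a link to the herbicides was not tested.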
